A study of Mus musculus with 9 samples.

Results

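The 33 genes described here encode proteins of the granular layer and the cornified envelope, the outermost differentiation program of the epidermis. They are Lor, Ivl, Rptn, Flg, Flg2, Hrnr, Tgm1, Tgm3, Tgm5, Casp14, Asprv1, Aspg, Spink5, Cst6, Calm4, Calml3, Krtdap, Sbsn, Dmkn, Crct1, Cnfn and 12 genes of the late cornified envelope group 1 (Lce1a1, Lce1a2, Lce1b, Lce1c, Lce1d, Lce1e, Lce1f, Lce1g, Lce1h, Lce1i, Lce1l and Lce1m). They were picked by gene symbol for their known roles, and all 33 were found among the 55536 genes of the deposited table. RNA was sequenced from keratinocytes, the epithelial cells of the epidermis, taken from the back skin of 9 mice aged 8 weeks, at an age when hair follicles rest (telogen). Every mouse had received 2 doses of UVB at 20 mJ/cm2 within 3 days, and skin was collected 24 h after the second dose. The epidermis came off after overnight floating on 0.25% trypsin, and libraries were made from polyadenylated RNA with a stranded kit. The groups were wild type (WT), Hmga2-/- and K5H2, with 3 mice of each genotype. Hmga2 encodes an architectural protein of chromatin with AT-hook domains. Which part of it the Hmga2-/- allele lacks, what the name K5H2 abbreviates, and the strain and sex of the mice are not given in the sources used here. No unexposed skin is among the samples, and every comparison is of irradiated skin between genotypes.

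Keratinocytes leave the basal layer, pass through the spinous layer and reach the granular layer, where they store profilaggrin and loricrin. They then replace the plasma membrane with the cornified envelope, a shell of proteins that transglutaminases join by isopeptide bonds. Proteases, their inhibitors and calcium-binding proteins time the processing of profilaggrin and the shedding of dead cells. In injured or stressed skin keratinocytes also make other envelope precursors, the small proline-rich proteins and the Lce3 proteins.

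The libraries carried the marks of epidermis. Normalized counts of the spinous keratin gene Krt10 ran from 329606 to 2210489 and those of the basal keratin gene Krt14 from 434658 to 1053123 across the 9 libraries. Cells other than keratinocytes were present at lower levels: Cd207 of Langerhans cells was at 134 to 971, Cd3e of T cells at 55 to 257, Pmel of melanocytes at 26 to 133, and Col1a2 of dermal fibroblasts at 15 to 1069. Depth was approximately 15.41 M reads in genes in Hmga2-/- 3 and 28.09 to 41.48 M in the other 8 libraries. Hmga2 itself was at 346, 11 and 56 in the WT mice, 3, 9 and 7 in the Hmga2-/- mice and 4, 11 and 0 in the K5H2 mice, where mice are given in the order of their replicate numbers, as throughout. Every Hmga2-/- mouse lay below every WT mouse. Relative to WT the log2 difference of Hmga2 was -3.18 (SE 1.17) in Hmga2-/-, at an adjusted p of 0.152, and -3.98 (SE 1.17) in K5H2, at an adjusted p of 0.116. The authors' deposited table gives -4.40 (adjusted p = 0.0377) and -4.76 (adjusted p = 0.021).

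Of the 33 genes, 19 lie on chromosome 3 between 92080271 and 93399442 (GRCm38), a stretch of 1.32 Mb known as the epidermal differentiation complex. All 12 Lce1 genes lie there between 92646535 and 93019060. The other 14 are spread over further chromosomes, 4 of them on chromosome 7, where Krtdap, Sbsn and Dmkn are neighbours. The Lce1 genes are close copies, which bears on how far their values can be told apart, so the first 60 coding bases of 6 of them are shown. They are read from the transcripts of GENCODE vM21 on GRCm38, and capitals mark bases that differ from Lce1a1. Lce1c lies on the plus strand and the other 5 on the minus strand.
Lce1a1 (gene at chr3:92646535-92648307): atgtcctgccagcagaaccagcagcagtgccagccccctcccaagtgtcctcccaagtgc
Lce1a2 (gene at chr3:92668613-92670315): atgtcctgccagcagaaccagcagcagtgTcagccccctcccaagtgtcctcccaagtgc
Lce1c (gene at chr3:92679247-92680918): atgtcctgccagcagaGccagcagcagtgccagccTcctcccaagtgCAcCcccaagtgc
Lce1f (gene at chr3:92718685-92720350): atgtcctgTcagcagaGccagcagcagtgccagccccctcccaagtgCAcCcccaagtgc
Lce1h (gene at chr3:92763215-92765065): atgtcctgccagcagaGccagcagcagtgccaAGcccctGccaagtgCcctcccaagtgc
Lce1m (gene at chr3:93017810-93019060): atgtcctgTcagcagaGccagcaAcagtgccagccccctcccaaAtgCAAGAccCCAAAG
Lce1a2 differed from Lce1a1 at 1 of these 60 bases, Lce1c, Lce1f and Lce1h at 5 each, and Lce1m at 15. Over whole transcripts, 9.66% to 27.1% of all 50-base windows of the other 11 Lce1 genes also occurred in another gene, and none of those of Lce1m did. The division of reads among Lce1 genes other than Lce1m is therefore uncertain. Outside this group 6.96% of the windows of Sbsn occurred in Tmem147os and 4.72% of those of Calm4 in Calm5. Rptn, Flg, Aspg, Calm4 and Sbsn overlap another annotated gene on their own strand, and Rptn, Hrnr, Tgm1, Tgm3, Tgm5 and Aspg a gene on the opposite strand. The sources used here do not say whether the counting used strand, so the values of these genes may include reads of their partners.

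The promoters of the genes also fell into kinds. The stretch from 60 bases before to 12 bases after the annotated start is shown for some of the genes given mouse by mouse below. All those shown hold TATAAA or ATAAAAGG there. Others given mouse by mouse, among them Flg2, Tgm1, Casp14 and Asprv1, hold neither in that stretch and are not shown. RefSeq promoters on GRCm38.p6 matched 28 of the 33 genes, each window running from 250 bases before to 50 bases after a start. Capitals mark TATAAA, ATAAAAGG and TGANTCA.
Lor (chr3:92083131-92083202, minus strand): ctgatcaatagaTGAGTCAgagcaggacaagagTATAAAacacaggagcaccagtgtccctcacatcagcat
Ivl (chr3:92573724-92573795, minus strand): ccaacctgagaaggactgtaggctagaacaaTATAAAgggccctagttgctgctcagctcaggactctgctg
Rptn (chr3:93393639-93393710, plus strand): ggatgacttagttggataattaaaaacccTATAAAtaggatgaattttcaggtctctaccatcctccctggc
Tgm3 (chr2:130012280-130012351, plus strand): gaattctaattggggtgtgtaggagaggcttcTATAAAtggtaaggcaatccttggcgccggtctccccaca
Lce1e (chr3:92709063-92709134, minus strand): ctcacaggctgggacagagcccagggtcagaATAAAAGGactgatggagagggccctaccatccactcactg
Lce1g (chr3:92752327-92752398, minus strand): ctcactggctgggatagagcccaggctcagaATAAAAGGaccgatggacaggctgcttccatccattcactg
Lce1h (chr3:92765054-92765125, minus strand): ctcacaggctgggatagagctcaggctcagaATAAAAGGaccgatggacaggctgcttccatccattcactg
Lce1m (chr3:93019050-93019121, minus strand): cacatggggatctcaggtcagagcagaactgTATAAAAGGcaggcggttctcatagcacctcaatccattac
TATAAA, the core of the TATA box, began 50 to 11 bases before the start on the gene's strand in 8 of the 28 genes (Lor, Ivl, Rptn, Hrnr, Tgm3, Krtdap, Lce1d and Lce1m), against 2.49% of all 32851 promoters. ATAAAAGG, which was searched for after the sequences had been read and which overlaps TATAAA where a T precedes it, began in the same interval in 9 of the 11 Lce1 genes with a promoter and in no other of the 28, against 0.484% of all promoters. TGANTCA occurred on either strand anywhere in the window in 8 of the 28 genes (Lor, Ivl, Rptn, Flg, Flg2, Krtdap, Sbsn and Dmkn) and in 0 of the 11 Lce1 genes, against 7.81% of all promoters. This pattern allows any middle base, while the site that AP-1 factors bind is TGAGTCA or TGACTCA. The only match was TGATTCA in Rptn and TGAATCA in Flg and in Flg2. The share of all promoters with TGAGTCA or TGACTCA alone was not counted. Matches to TTGCNNAA (C/EBP type) were found in 7 genes against 10.8% of all promoters, to AACNGGTT (Grainyhead type) in 2 against 2.09%, and to CACCC (Krüppel-like factor type) in 19 against 57.5%, each on either strand anywhere in the window. These are matches of letters, and binding was not measured.

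The 33 genes together held 1.22%, 2.6% and 2.04% of all normalized counts in the WT mice, 1.83%, 3.15% and 3.87% in the Hmga2-/- mice, and 1.09%, 1.91% and 2.13% in the K5H2 mice. Per kilobase of exon, averaged over the 9 libraries, the level was highest for Lor, the gene of the main envelope protein loricrin, at 113578 normalized counts. The secreted peptide gene Dmkn followed at 71440 and the calmodulin-like gene Calm4 at 59600. At the low end stood Flg at 193.4, which encodes the giant precursor profilaggrin, and Aspg at 134.4, which encodes an asparaginase. The 18829 exonic bases of Flg held only 8721 different windows of the length used above, so part of its sequence repeats. The same held for Flg2, with 9055 different windows in 20803 exonic bases, and for Hrnr, with 4559 in 11187. How reads from such repeats were counted was not tested, and the places of Flg, Flg2 and Hrnr on this scale are uncertain. The Lce1 genes spanned 275.6 for Lce1g to 11340 for Lce1m.

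**Figure D1:**
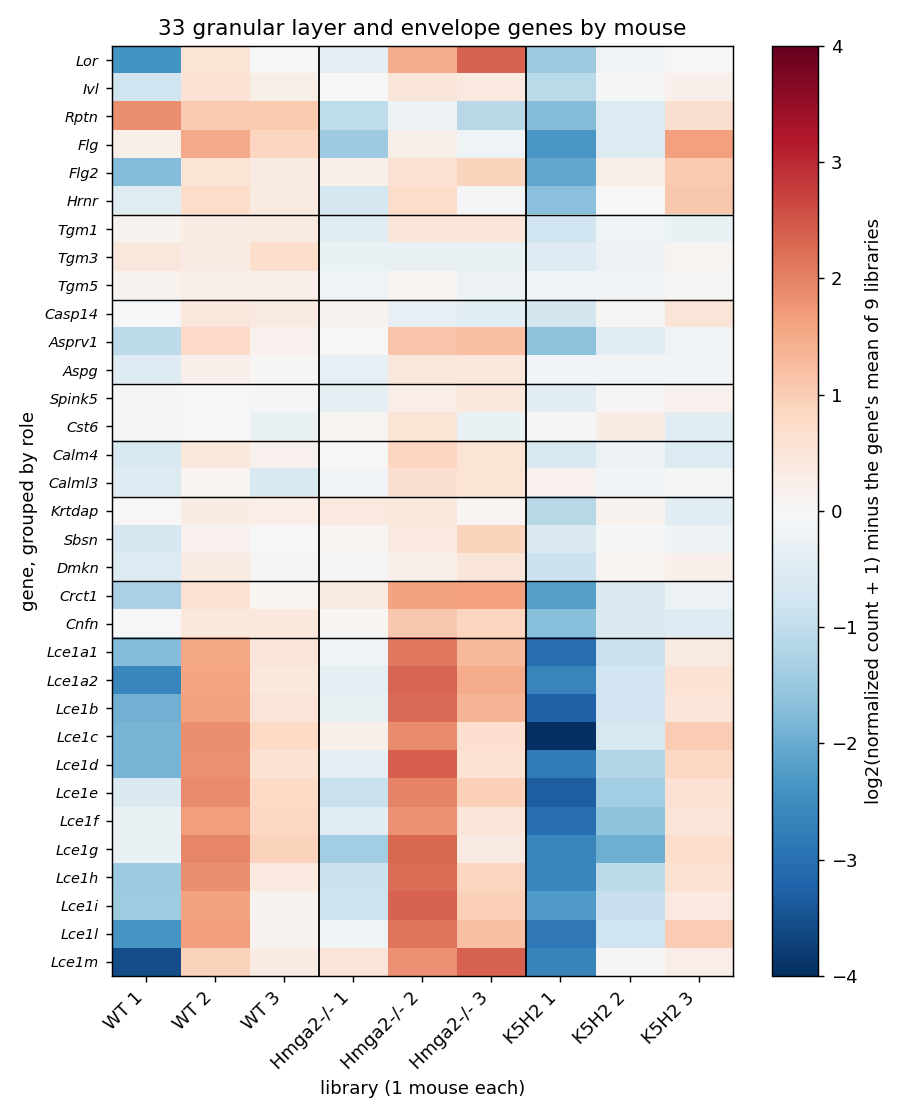
Level of each of the 33 genes (rows, grouped by role) in each of the 9 libraries (columns), as the log2 of the normalized count plus 1 minus the gene's mean over the 9 libraries. The 12 Lce1 rows are alike, lowest in K5H2 1 for 11 of them and highest in Hmga2-/- 2 for 11 of them, while the rows of Tgm5, Spink5 and Cst6 are pale throughout.

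All 33 genes passed the filter on low values and entered a fit over 14695 genes. None of them passed the test in any comparison. In Hmga2-/- against WT, limma called 0 of 33 at an adjusted p under 0.05, against 0.728% of all genes. Voom called 0 against 0.157%, and 5 of 33 had an unadjusted p under 0.05 against 23.7%. In K5H2 against WT, limma called 0 against 1.28% of all genes, voom 0 against 2.06%, and 6 of 33 had an unadjusted p under 0.05 against 18%. In K5H2 against Hmga2-/-, limma called 0 against 0.497%, voom 0 against 0.401%, and 9 of 33 had an unadjusted p under 0.05 against 21.1%. The authors' deposited table calls 2 of 33 genes lower in Hmga2-/- than in WT (Rptn and Tgm3; 7.66% of all genes), 2 lower in K5H2 than in WT (Tgm3 and Cnfn; 5.82%) and 4 lower in K5H2 than in Hmga2-/- (Asprv1, Calm4, Crct1 and Cnfn; 4.03%). That is 6.06%, 6.06% and 12.1% of the 33 genes.

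The signs of the differences leaned one way in each comparison. Against WT, 23 of the 33 log2 differences were positive in Hmga2-/- (median 0.41) and 29 of 33 were negative in K5H2 (median -0.69), and both comparisons share the WT mice. Against Hmga2-/-, 28 of 33 were negative in K5H2 (median -0.92). Of the 21 genes other than Lce1, 14 were positive in Hmga2-/- (median 0.28) and 17 negative in K5H2 (median -0.33) against WT. Against Hmga2-/-, 16 of these 21 were negative in K5H2 (median -0.43). The Lce1 genes vary together and all genes were measured in the same mice, so the signs are not separate observations. The medians of all genes tested were -0.01, -0.02 and 0.01. The lean of Hmga2-/- against WT depended on a few mice: the median of the 33 genes was 0.05 without WT 1, 0.14 without Hmga2-/- 2 and -0.07 without both WT 1 and Hmga2-/- 3. The median for K5H2 against WT was -0.22 without K5H2 1, -0.27 without WT 2 and -1.20 without WT 1. That for K5H2 against Hmga2-/- was -0.74 without K5H2 1, -0.78 without Hmga2-/- 2 and -1.48 without K5H2 3. In bulk tissue fewer cells of a layer and less RNA per cell cannot be told apart.

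**Figure D2:**
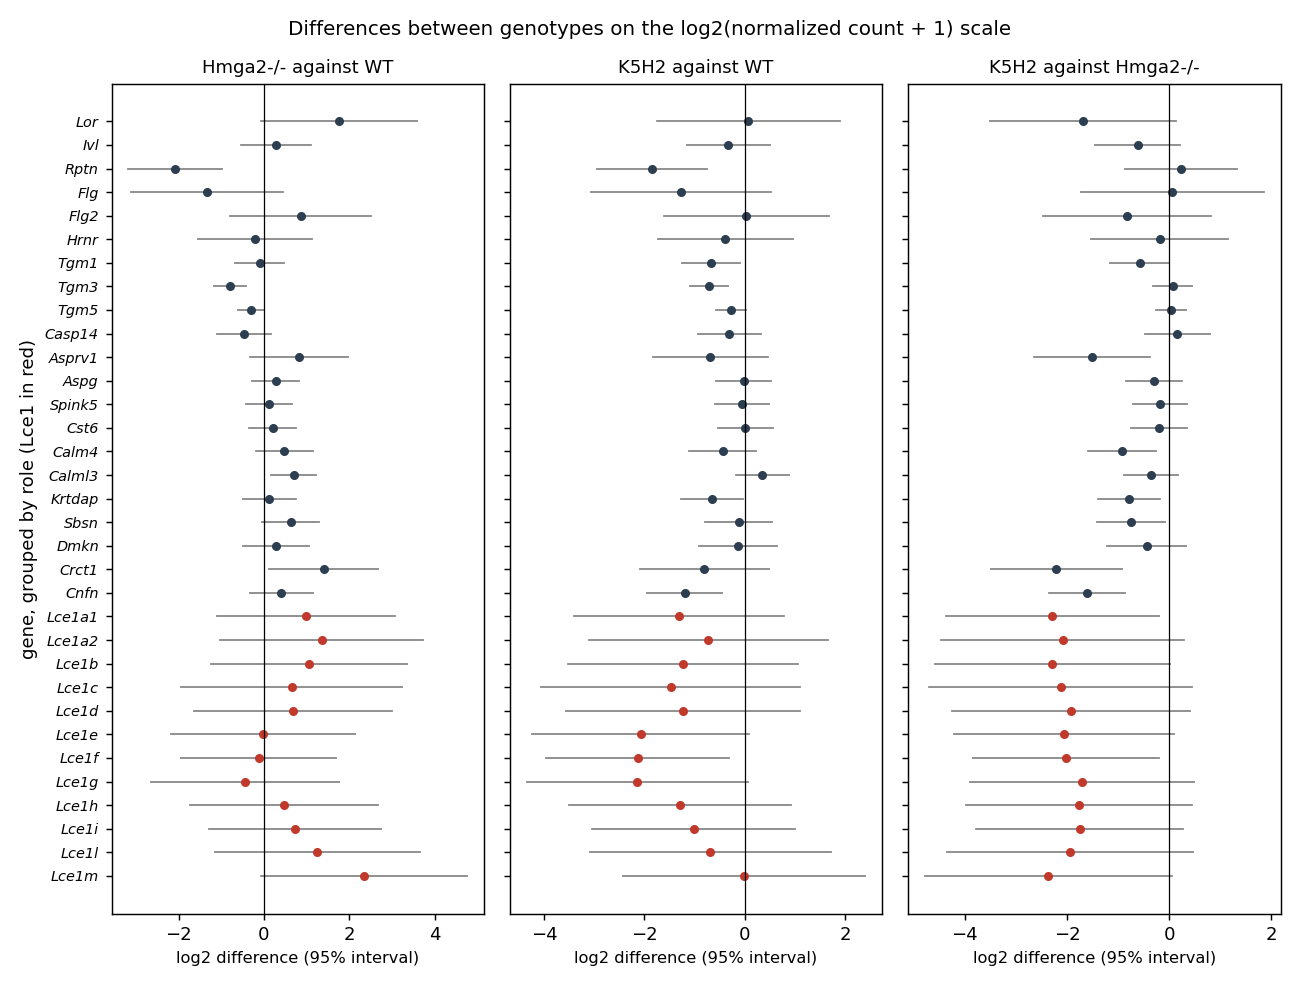
Log2 difference of each gene (points) with its 95% interval (lines) for the 3 comparisons, with Lce1 genes in red. The 12 Lce1 points lie left of 0 in both panels of K5H2, with intervals that mostly cross 0, and the intervals of Tgm5, Tgm3, Spink5 and Cst6 are among the narrow ones.

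Among the envelope precursors and the fused S100 proteins, which join a calcium-binding domain to long repeats, 0 of 6 genes passed the test in any comparison. Lor (chr3:92080271-92083142, minus strand) was at 25665, 196348 and 132849 in the WT mice, 101463, 369366 and 691752 in the Hmga2-/- mice and 48255, 120925 and 131880 in the K5H2 mice. The highest value was 26.95 times the lowest, and all 3 pairs of genotypes overlapped. Relative to WT its log2 difference was 1.76 (SE 0.82, adjusted p = 0.222) in Hmga2-/- and 0.07 (SE 0.82, adjusted p = 0.973) in K5H2, and K5H2 relative to Hmga2-/- gave -1.69 (SE 0.82, adjusted p = 0.264). Loricrin alone accounted for 0.0898% of all normalized counts in WT 1 and 1.92% in Hmga2-/- 3.

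Rptn (chr3:93393699-93399442, plus strand), which encodes repetin, a fused S100 protein cross-linked into the envelope, showed another order. Rptn was at 3342, 1901 and 1887 in the WT mice, 459, 797 and 430 in the Hmga2-/- mice and 279, 634 and 1437 in the K5H2 mice. Every mouse of the other genotypes lay below every WT mouse, with means of 2377 ± 836 in WT, 562 ± 204 in Hmga2-/- and 783 ± 593 in K5H2 (SD, n = 3 each). Relative to WT its log2 difference was -2.08 (SE 0.50, adjusted p = 0.0814) in Hmga2-/- and -1.85 (SE 0.50, adjusted p = 0.0904) in K5H2. In the authors' deposited table the 2 values are -2.08 (adjusted p = 0.0197) and -1.60 (adjusted p = 0.107). WT 1, which was the lowest WT library for Lor, was the highest of all 9 for Rptn.

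Flg (chr3:93273523-93293686, plus strand) was at 3115, 7650 and 4854 in the WT mice, 966, 3134 and 2365 in the Hmga2-/- mice and 527, 1865 and 8295 in the K5H2 mice. K5H2 thus held both the lowest and the highest of the 9 values, 15.74-fold apart. The log2 difference was -1.34 (95% interval -3.12 to 0.45, adjusted p = 0.319) for Hmga2-/- and -1.27 (-3.06 to 0.51, adjusted p = 0.429) for K5H2 against WT. Flg2 (chr3:93197278-93221391, plus strand), which encodes filaggrin 2, was at 1529, 7467 and 6431 in the WT mice, 5967, 7630 and 9598 in the Hmga2-/- mice and 1210, 6085 and 10570 in the K5H2 mice. The groups overlapped, and the log2 difference from WT was 0.86 (SE 0.74) in Hmga2-/- and 0.03 (SE 0.74) in K5H2. Ivl (chr3:92570902-92573735, minus strand), the gene of the early envelope scaffold involucrin, was at 3118, 8052 and 6390 in the WT mice, 5465, 7492 and 7056 in the Hmga2-/- mice and 2541, 5107 and 6214 in the K5H2 mice. WT and Hmga2-/- differed by 0.28 (95% interval -0.55 to 1.11) and WT and K5H2 by -0.33 (-1.16 to 0.50) on the log2 scale. Hrnr, the gene of hornerin, ranged from 1137 to 7736, and its log2 differences lay between -0.39 and -0.18 in the 3 comparisons.

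The transglutaminases catalyse the cross-links of the envelope, and Tgm5 and Tgm3 varied least among mice of all 33 genes. Tgm3 (chr2:130012349-130050399, plus strand), whose product is activated by cleavage and acts on small precursors in the cytosol, was at 3515, 3214 and 4188 in the WT mice, 2123, 2065 and 2065 in the Hmga2-/- mice and 1779, 2146 and 2756 in the K5H2 mice. All 6 mice of the other genotypes lay below the 3 WT mice, and means were 3639 ± 499, 2084 ± 33.5 and 2227 ± 494 (SD, n = 3 each). The difference of -0.79 log2 units (SE 0.17) for Hmga2-/- against WT had an adjusted p of 0.0669, and that of -0.72 (SE 0.17) for K5H2 against WT one of 0.0677, in each case the smallest of the 33 genes. Between K5H2 and Hmga2-/- it was 0.07 (95% interval -0.31 to 0.45). The authors' deposited table gives -0.80 (adjusted p = 0.00355) and -0.71 (adjusted p = 0.0121) for Tgm3 against WT.

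Tgm1 (chr14:55700009-55713926, minus strand), which encodes the membrane-anchored transglutaminase that is mutated in human lamellar ichthyosis, was at 6073, 6853 and 7054 in the WT mice, 3956, 7796 and 7734 in the Hmga2-/- mice and 3202, 4890 and 4598 in the K5H2 mice. The K5H2 mice lay below the WT mice, and Hmga2-/- overlapped both. Relative to WT the log2 difference was -0.68 (SE 0.26, adjusted p = 0.210) in K5H2 and -0.10 (SE 0.26, adjusted p = 0.832) in Hmga2-/-. Tgm5 is described after its values were seen, because its mice varied least among the 33 genes. It was at 1755, 1846 and 1827 in the WT mice, 1404, 1680 and 1333 in the Hmga2-/- mice and 1463, 1423 and 1621 in the K5H2 mice. Both other genotypes lay wholly below WT, at log2 differences of -0.30 (SE 0.13, adjusted p = 0.204) and -0.27 (SE 0.13, adjusted p = 0.324).

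The mice of 2 genotypes stood apart without overlap in a few of the 33 genes. Lower values without overlap were seen in 3 genes for Hmga2-/- against WT (Rptn, Tgm3 and Tgm5; 9.09% against 14.9% of all genes) and in 5 for K5H2 against WT (Rptn, Tgm1, Tgm3, Tgm5 and Cnfn; 15.2% against 14.1%). For K5H2 against Hmga2-/- there were 6 (Asprv1, Calm4, Sbsn, Crct1, Cnfn and Lce1m; 18.2% against 12.6%). Higher values without overlap were seen in 0 genes in each comparison, against 14.8%, 12.9% and 13.8% of all genes.

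**Figure D3:**
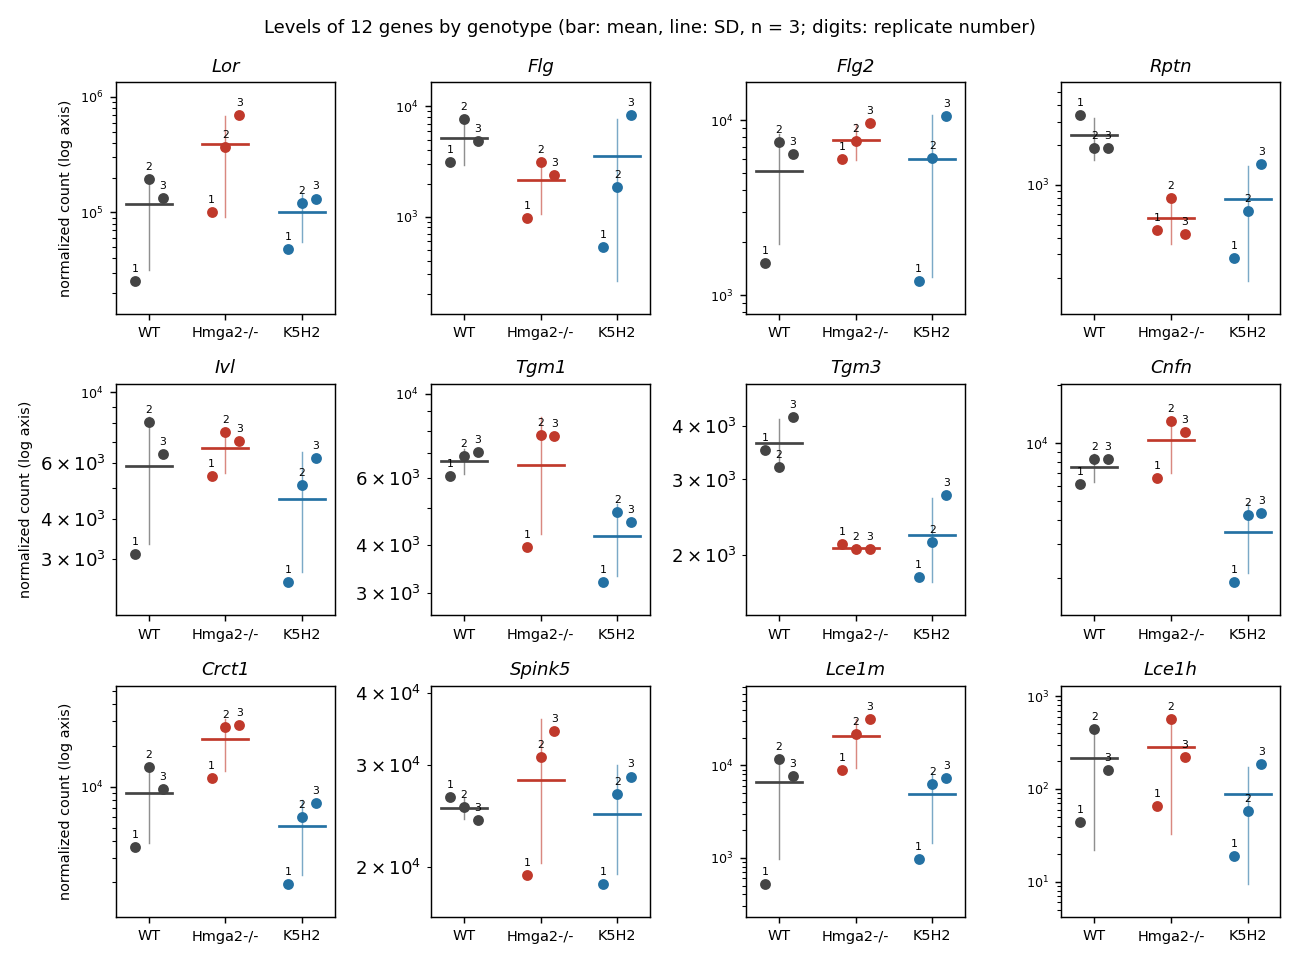
Normalized counts (log axis) of 12 of the genes by genotype, with 1 point per mouse marked by its replicate number, a bar at the mean and a line of 1 SD (n = 3). In the Tgm3 and Rptn panels the WT points stand above all others, in the Cnfn panel the K5H2 points stand below all others, and in the Lor, Flg2 and Lce1m panels the points of 1 genotype spread over most of the axis.

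Profilaggrin is cut into filaggrin and then into amino acids, and 3 genes encode enzymes, 2 of which act there. Casp14 (chr10:78711991-78718294, minus strand), the gene of a caspase of filaggrin breakdown, was at 5880, 8160 and 7607 in the WT mice, 6556, 4724 and 4409 in the Hmga2-/- mice and 3600, 6219 and 8548 in the K5H2 mice. The groups overlapped, and the log2 difference from WT was -0.47 (SE 0.29, adjusted p = 0.320) in Hmga2-/- and -0.31 (SE 0.29, adjusted p = 0.596) in K5H2. Asprv1 (chr6:86628164-86629710, plus strand), the gene of a retroviral-like aspartic protease that cuts the linkers of profilaggrin, was at 12571, 44577 and 29460 in the WT mice, 26127, 57760 and 60236 in the Hmga2-/- mice and 8413, 19698 and 23771 in the K5H2 mice. The K5H2 mice lay below every Hmga2-/- mouse (log2 difference -1.51, SE 0.52, adjusted p = 0.159), and both overlapped WT. The authors' deposited table gives -1.47 (adjusted p = 0.033) for this comparison. Aspg ranged from 326 to 640, and its log2 differences lay between -0.30 and 0.28.

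The genes of 2 protease inhibitors varied little among mice, with within-genotype SDs of 0.32 and 0.33 log2 units. Spink5 (chr18:43963235-44022501, plus strand) encodes LEKTI, the inhibitor of epidermal kallikreins that is lost in human Netherton syndrome. It was at 26386, 25384 and 24104 in the WT mice, 19349, 30915 and 34352 in the Hmga2-/- mice and 18693, 26679 and 28644 in the K5H2 mice. The WT mice sat inside the range of both other genotypes, and the log2 difference was 0.12 (95% interval -0.42 to 0.65) for Hmga2-/- and -0.06 (-0.59 to 0.48) for K5H2 against WT. Cst6 (chr19:5344705-5349574, minus strand) encodes cystatin M/E, an inhibitor of cathepsins and legumain. It was at 25925, 25362 and 21265 in the WT mice, 27112, 37321 and 21269 in the Hmga2-/- mice and 24408, 31433 and 18584 in the K5H2 mice. Its log2 difference from WT was 0.21 (95% interval -0.34 to 0.76) in Hmga2-/- and 0.01 (-0.54 to 0.56) in K5H2.

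Calml3 (chr13:3802896-3804316, minus strand), which encodes an epithelial calmodulin-like protein, had the highest log2 difference of the 33 genes for K5H2 against WT, at 0.34 (SE 0.24, adjusted p = 0.470). It was at 3881, 5890 and 3656 in the WT mice, 5031, 8615 and 8176 in the Hmga2-/- mice and 6271, 5152 and 5282 in the K5H2 mice, and for Hmga2-/- against WT the difference was 0.69 (SE 0.24, adjusted p = 0.135). Calm4, chosen after its values were seen, encodes an epidermal calcium-binding protein. It was at 33650, 68597 and 57400 in the WT mice, 50817, 92707 and 75793 in the Hmga2-/- mice and 33907, 43531 and 35460 in the K5H2 mice. Every K5H2 mouse lay below every Hmga2-/- mouse (log2 difference -0.92, SE 0.30, adjusted p = 0.151), and the authors' deposited table gives -0.96 (adjusted p = 0.0311). The 2 calmodulin-like genes lie close to each other on chromosome 13.

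Krtdap, Sbsn and Dmkn are neighbours that encode peptides secreted by differentiating keratinocytes. Krtdap (chr7:30787896-30791097, plus strand) was at 21871, 27453 and 26564 in the WT mice, 29451, 30111 and 23297 in the Hmga2-/- mice and 10253, 24477 and 16145 in the K5H2 mice. The groups overlapped, and the log2 difference of K5H2 was -0.66 (SE 0.28, adjusted p = 0.247) from WT and -0.78 (SE 0.28, adjusted p = 0.169) from Hmga2-/-. Sbsn ranged from 49211 to 146320 and Dmkn from 84244 to 210555. The 3 genes had log2 differences of 0.12 to 0.62 for Hmga2-/- against WT, -0.66 to -0.13 for K5H2 against WT and -0.78 to -0.43 for K5H2 against Hmga2-/-, and 0 of 3 passed the test in each.

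Cnfn and Crct1 encode small cysteine-rich proteins of the upper layers, and their K5H2 values were low. Cnfn (chr7:25367620-25369724, minus strand), the gene of the envelope component cornifelin, was chosen after its values were seen. It was at 6119, 8271 and 8257 in the WT mice, 6567, 12996 and 11395 in the Hmga2-/- mice and 1892, 4204 and 4314 in the K5H2 mice. The 3 K5H2 mice lay below the other 6, with a mean of 3470 ± 1368 against 7549 ± 1238 in WT and 10319 ± 3347 in Hmga2-/- (SD, n = 3 each). Its log2 difference was -1.20 (SE 0.33, adjusted p = 0.101) against WT and -1.61 (SE 0.33, adjusted p = 0.0694) against Hmga2-/-, the latter with the smallest adjusted p of the 33 genes in that comparison. The authors' deposited table gives -1.12 (adjusted p = 0.0162) and -1.57 (adjusted p = 0.000346). Crct1 (chr3:93014205-93015687, minus strand), which lies next to Lce1m, was at 3651, 13831 and 9558 in the WT mice, 11567, 27098 and 28030 in the Hmga2-/- mice and 1956, 6017 and 7552 in the K5H2 mice. K5H2 lay below Hmga2-/- without overlap (log2 difference -2.21, SE 0.58, adjusted p = 0.112), and the authors' deposited table gives -2.10 (adjusted p = 0.0246). Against WT its log2 difference was 1.40 (SE 0.58, adjusted p = 0.185) in Hmga2-/- and -0.81 (SE 0.58, adjusted p = 0.482) in K5H2.

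The 12 Lce1 genes encode small cysteine-rich proteins that are added late to the envelope. Their log2 differences were negative in 12 of 12 for K5H2 against WT (median -1.26) and for K5H2 against Hmga2-/- (median -2.03), and positive in 9 of 12 for Hmga2-/- against WT (median 0.71). None passed limma's test, which called 0.728%, 1.28% and 0.497% of all genes for Hmga2-/- against WT, K5H2 against WT and K5H2 against Hmga2-/-, and voom called 0 in each. In the same order 0, 1 and 2 of the 12 had an unadjusted p under 0.05, against 23.7%, 18% and 21.1% of all genes. The adjusted p values ran from 0.221 to 0.993, 0.211 to 0.994 and 0.205 to 0.343 in that order. The 12 genes are close copies that vary together, so their shared sign is not 12 separate observations.

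Lce1m (chr3:93017810-93019060, minus strand), the highest of the group on both scales and the copy with no shared window, was at 522, 11722 and 7629 in the WT mice, 8828, 22068 and 31405 in the Hmga2-/- mice and 958, 6333 and 7386 in the K5H2 mice. WT 2 stood 22.46-fold above WT 1, a wider gap than the 3.557-fold range of Hmga2-/- and the 7.71-fold range of K5H2. The K5H2 mice lay below the Hmga2-/- mice, at a log2 difference of -2.36 (SE 1.09, adjusted p = 0.244), while Hmga2-/- against WT gave 2.34 (SE 1.09, adjusted p = 0.221) and K5H2 against WT -0.02 (SE 1.09). Lce1h (chr3:92763215-92765065, minus strand), the lowest of the group by mean normalized count not scaled for length, was at 44, 443 and 159 in the WT mice, 66, 574 and 220 in the Hmga2-/- mice and 19, 58 and 185 in the K5H2 mice. All pairs of genotypes overlapped, and its log2 differences were 0.47, -1.29 and -1.76 (SE 1.00 each) for Hmga2-/- against WT, K5H2 against WT and K5H2 against Hmga2-/-.

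Lce1f, Lce1g and Lce1e had the lowest log2 differences of the 33 genes for K5H2 against WT. Lce1f (chr3:92718685-92720350, minus strand) was at 606, 2360 and 1309 in the WT mice, 550, 2608 and 1017 in the Hmga2-/- mice and 90, 239 and 1019 in the K5H2 mice, with a log2 difference of -2.13 (SE 0.82, adjusted p = 0.211) for K5H2 against WT. Lce1g (chr3:92750148-92752338, minus strand) was at 125, 582 and 284 in the WT mice, 57, 742 and 194 in the Hmga2-/- mice and 24, 38 and 248 in the K5H2 mice, and its difference was -2.14 (SE 1.00, adjusted p = 0.290). Lce1e (chr3:92707401-92709074, minus strand) was at 144, 804 and 374 in the WT mice, 115, 868 and 416 in the Hmga2-/- mice and 21, 81 and 324 in the K5H2 mice, and its difference was -2.07 (SE 0.98, adjusted p = 0.297). In each of them K5H2 3 lay within the WT range, and K5H2 1 and K5H2 2 lay below it. The other 7 Lce1 genes ranged from 33 for Lce1l in K5H2 1 to 5791 for Lce1a1 in Hmga2-/- 2.

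The count of Lce1 genes with a negative difference held to different degrees when mice were left out, an analysis chosen after seeing the data. For K5H2 against Hmga2-/- it was 12 of 12 under each of the 20 alternative settings, with the median nearest to 0, at -1.09, without K5H2 1. Many of these settings cannot change these differences, namely leaving out a WT mouse, the filters and robust moderation. The same is true of fitting only the 2 genotypes and of the replicate block. For K5H2 against WT the count was 9 of 12 without K5H2 1 (median -0.36) and 9 of 12 without WT 2 (median -0.48). For Hmga2-/- against WT the median was -0.18 without WT 1, 0.07 without Hmga2-/- 2, 1.49 without WT 2 and 1.43 without Hmga2-/- 1.

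Variation among mice of a genotype was the plainest feature of the Lce1 genes. The within-genotype SD of log2(normalized count + 1) was 1.33 to 1.90 in the 12 genes, with a median of 1.65, against a median of 0.43 in the other 21 genes and 0.29 in all genes tested. All 12 were among the 10% of genes with the widest spread, and Lce1c, at 1.90, was matched or exceeded by 0.163% of genes. The median of the Lce1 genes stayed between 1.49 and 1.80 when any single library was left out. In all, 19 of the 33 genes were among that 10%, among them Lor (1.30), Flg (1.31) and Flg2 (1.20). The transglutaminase gene Tgm5 was at the other end at 0.12, which 95% of genes matched or exceeded, with Tgm3 at 0.21. With a spread of this size, an Lce1 gene's 95% interval covered 3.64 to 5.16 log2 units.

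**Figure D4:**
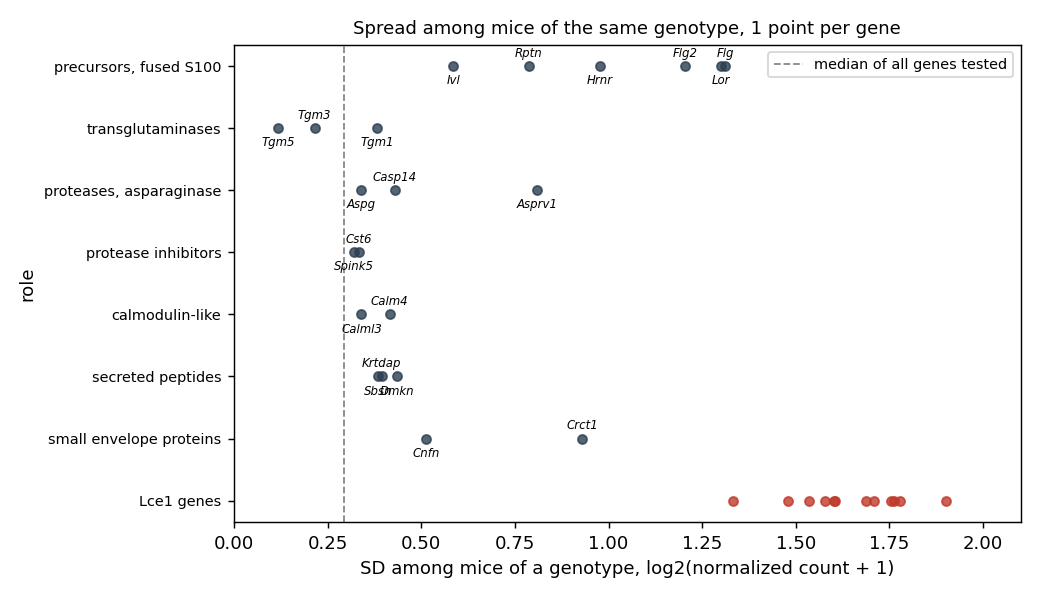
Within-genotype SD of log2(normalized count + 1) for each of the 33 genes (points, 1 row per role, Lce1 in red), with the median of all genes tested as a dashed line at 0.29. The Lce1 genes lie at 1.33 or above, the transglutaminase genes at 0.38 or below, and the precursors in between.

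The mice took the same places for most of the genes. Within WT, WT 1 was the lowest for 28 of 33 genes, including 12 of 12 Lce1 genes, against 42.3% of all genes, and WT 2 was the highest for 28, against 34.6%. Within Hmga2-/-, Hmga2-/- 1 was the lowest for 27 (12 of 12 Lce1; 35.1% of all genes) and Hmga2-/- 2 the highest for 23 (30.9%). Within K5H2, K5H2 1 was the lowest for 30 (12 of 12 Lce1; 37.6%) and K5H2 3 the highest for 26 (36.4%). Of all 9 libraries K5H2 1 was the lowest for 25 genes, against 10.5% of all genes. Hmga2-/- 2 was the highest for 18, against 12.1%, and Hmga2-/- 3, the shallowest library, for 7 (Lor, Asprv1, Spink5, Sbsn, Dmkn, Crct1 and Lce1m; 18.8%). K5H2 3 was the highest of the 9 for Flg, Flg2, Hrnr and Casp14.

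Other genes of the differentiation pathway were compared by lists chosen for their roles, beside the same background of 0.728%, 1.28% and 0.497% of all genes called, and of 23.7%, 18% and 21.1% with an unadjusted p under 0.05. Of the precursors of stressed skin, 21 Sprr and Lce3 genes of which 19 were tested, 2 fell by limma's test in Hmga2-/- against WT (Sprr1b and Sprr2a3) and 17 did not pass, while voom called 0 and the authors' deposited table gives 12, all lower. In K5H2 against WT 8 fell (Sprr1b, Sprr2d, Sprr2e, Sprr2h, Lce3c, Lce3d, Lce3e and Lce3f), while voom called 9 and the authors' deposited table gives 16, all lower. In K5H2 against Hmga2-/- 0 of 19 were called by limma, with 3 at an unadjusted p under 0.05, 0 by voom and 1 (Lce3c) in the authors' deposited table. The number of these calls changed with the libraries in the fit, in an analysis added after seeing the data. For Hmga2-/- against WT limma called 0 of the list without WT 1, WT 3, Hmga2-/- 1, Hmga2-/- 3 or K5H2 3, 1 without K5H2 2, 2 without Hmga2-/- 2, 4 without K5H2 1 and 7 without WT 2. For K5H2 against WT it called 0 without WT 1, WT 3, K5H2 1 or K5H2 3, 1 without K5H2 2, and 5 to 12 without one of the other 4 libraries. The calls over all genes moved likewise, from 107 to between 1 (without WT 3) and 482 (without WT 2) in the first comparison, and from 188 to between 17 (without WT 3) and 307 (without WT 2) in the second. The medians of their log2 differences were -2.82, -2.91 and -0.38. Sprr1b, the gene of cornifin, was at 33190, 10014 and 22763 in the WT mice, 2270, 4607 and 1567 in the Hmga2-/- mice and 2483, 6299 and 2623 in the K5H2 mice. All 6 other mice lay below WT, at log2 differences of -2.95 (SE 0.51, adjusted p = 0.0386) and -2.51 (SE 0.51, adjusted p = 0.0468). The Sprr2 and Lce3 genes are also families of close copies.

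The order of the mice differed between the 2 kinds of precursors. WT 1 had the highest median of the Sprr and Lce3 list, at 2.84 log2 units above each gene's mean over the libraries, and a median of -1.79 for the Lce1 genes. In WT 2 the medians were 1.07 and 1.68, and in WT 3 they were 1.90 and 0.52. Hmga2-/- 3 stood at -2.00 for the Sprr and Lce3 list and at 0.95 for the Lce1 genes, Hmga2-/- 2 at 0.47 and 2.19, and Hmga2-/- 1 at -0.80 and -0.37. In K5H2 the medians were -1.87, -0.43 and -0.73 for the Sprr and Lce3 list and -2.84, -0.91 and 0.58 for the Lce1 genes. The 21 genes other than Lce1 kept to a narrower band, from -0.84 in K5H2 1 to 0.48 in Hmga2-/- 2.

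**Figure D5:**
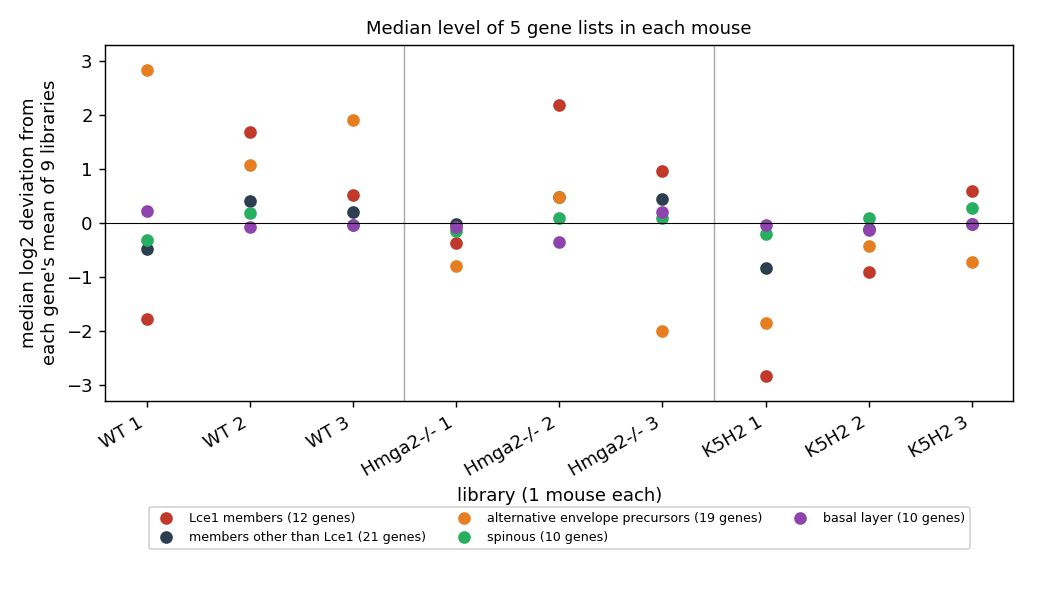
Median deviation of each gene list (colours) in each library, in log2 units from each gene's mean over the 9 libraries, with grey lines between genotypes. In WT 1 the alternative envelope precursors (Sprr and Lce3 genes) stand at 2.84 and the Lce1 genes at -1.79, in K5H2 1 they stand at -1.87 and -2.84, and the spinous and basal lists stay between -0.36 and 0.28.

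Among 15 proteases of filaggrin processing and shedding, Klk13 fell by limma's test in Hmga2-/- against WT and Klk6 and Klk13 fell in K5H2 against WT, while the other 14 and 13 did not pass. Voom called 0 in the first comparison and 3 in the second (Klk6, Klk8 and Klk13), and the authors' deposited table gives 2 (Klk6 and Klk13) and 5 (Klk6, Klk7, Klk8, Klk10 and Klk13), all lower. In K5H2 against Hmga2-/- limma called 0 of 15, with 5 at an unadjusted p under 0.05, voom called 0 and the authors' deposited table gives 3 (Klk5, Klk8 and Blmh), all lower. Limma did not call Klk13 in Hmga2-/- against WT without WT 1, WT 3, any one Hmga2-/- mouse or K5H2 3, and it called 0 of the 15 in K5H2 against WT without WT 1, WT 3, K5H2 1 or K5H2 3. Klk13, a kallikrein gene, was at 3878, 1324 and 2314 in the WT mice, 229, 356 and 115 in the Hmga2-/- mice and 79, 426 and 262 in the K5H2 mice (log2 differences from WT of -3.43, SE 0.61, adjusted p = 0.0386, and -3.46, SE 0.61, adjusted p = 0.0298). Klk6 stood at 16159, 6510 and 9422 in the WT mice and 838, 2340 and 1098 in K5H2 (log2 difference -2.95, SE 0.53, adjusted p = 0.0334). Both genes were lower in every mouse of the other genotypes than in any WT mouse. Of 10 spinous genes, 20 transcription factors of late differentiation, 13 tested genes of other envelope proteins and 10 basal genes, limma called 0 in every comparison, with 1 to 4, 2 to 3, 0 to 3 and 0 to 4 at an unadjusted p under 0.05, and voom called 0. In Hmga2-/- against WT the authors' deposited table calls 4 spinous genes (Krt77 higher, and Dsg1b, Dsc1 and Tgfa lower) and the basal gene Krt15 (higher). In K5H2 against WT it calls the basal genes Krt15 and Dst higher, and Csta1 and the basal gene Krt14 lower. The medians of the spinous, transcription factor, other envelope and basal lists lay between 0.10 and 0.17, -0.07 and -0.01, -0.66 and 0.04, and -0.20 and -0.05.

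Markers of other layers and cells also moved with these mice. Summed normalized counts of the 10 spinous genes were 755833 in WT 1 and at least 1624387 in every other library. Krt1 and Krt10 made up 179849 and 329606 of the sum in WT 1. The median deviation of the 10 genes was only -0.33 log2 units in WT 1 and -0.21 to 0.28 elsewhere. The sum of the 10 basal genes ran from 1301955 to 1969381. WT 1 also had the lowest sum of 8 Langerhans cell genes (8989, against 17681 to 43822 elsewhere), the lowest of 8 T cell genes (1518, against 1934 to 5334) and the highest of 8 sebocyte genes (154980, against 37951 to 79182). K5H2 1, the library with the lowest envelope values, had the highest sum of 8 dermal fibroblast genes (4590, against 570 to 2248). The sums of the fibroblast genes were low in all WT mice (570 to 1017) and higher in Hmga2-/- (1637 to 2154) and K5H2 (1493 to 4590). Sparc alone was at 508, 921 and 674 in the WT mice, 1255, 1102 and 1406 in the Hmga2-/- mice and 1383, 1529 and 1300 in the K5H2 mice. It thus made up most of the sum in every library but K5H2 1. Col1a2 and Sparc rose in K5H2 against WT (adjusted p = 0.0463 and 0.045), of which voom called Sparc alone. Limma called both without WT 2, Col1a2 without K5H2 3, and neither without any one of the other 7 libraries. The authors' deposited table calls 4 of the 8 fibroblast genes higher in Hmga2-/- and 6 higher in K5H2 than in WT. Voom and the authors' deposited table also call the melanocyte gene Mitf higher in K5H2 than in WT. Of the sebocyte genes, the authors' deposited table calls Elovl3 and Soat1 lower in Hmga2-/- than in WT and Elovl3, Awat2 and Soat1 lower in K5H2 than in WT. It also calls the hair follicle gene Lhx2 higher in K5H2 than in WT and the T cell gene Thy1 lower in K5H2 than in Hmga2-/-, and limma and voom called none of these 5 genes. The sums of 8 melanocyte genes were 413 to 633 in WT, 298 to 743 in Hmga2-/- and 658 to 1092 in K5H2, and those of 8 hair follicle genes 211287 to 259859, 180761 to 234061 and 135825 to 244891. None of these 48 marker genes was at 0 in all libraries, and 5 of the 8 fibroblast and 7 of the 8 melanocyte genes passed the filter on low values. The part of these cells and layers in the differences above was not tested.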

How the data were processed

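Polyadenylated RNA of epidermal keratinocytes was sequenced from 9 UVB-exposed mice, 3 per genotype. The submitters' processing notes list Trim Galore, STAR, DESeq2 and GRCm38, without versions. Per the file headers, the authors deposited normalized counts rounded to whole numbers, handled here as a score, with their mean over libraries, also a score. Per the file headers, the authors also deposited a log2 fold change and an adjusted p-value for each comparison. Those were copied only where the authors' deposited table is named. No column belonged to another series (0).

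Approximate reads were recovered from genes listed in a single library alone. Of their low values, 99.78% to 100% lay within 0.05 reads, plus an allowance for rounding, of a whole multiple of 1 read. The size of 1 read was fitted to these same values. Intervals and ranges cover the spread among mice.

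Genotypes were compared with limma-trend, two-sided, on log2(value + 1), for 14695 genes with a value of at least 10 in at least 3 libraries. A single model with a mean for each genotype covered the 9 libraries, and a Benjamini-Hochberg adjusted p under 0.05 was a call. Adjusted p values come from that fit unless the authors' table is named. Adding 1 makes log2 differences of low genes smaller than they are. The 33 genes, the gene lists and the tests were chosen with earlier results of these data known.

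Mouse-by-mouse values are given for 11 genes picked for their role, genes called by limma, the 3 highest and 3 lowest log2 differences against WT, and the highest and lowest Lce1 gene, 19 in all. Other genes are given by range or are said to be chosen after their values were seen. Gene positions in the deposited table equalled GENCODE vM21 for 33 of 33 genes. Promoter sequences are from RefSeq (GRCm38.p6). Alternatives were filters, pseudocounts, scalings, voom on approximate reads, libraries in the fit, robust moderation, a replicate block and leaving out libraries. Tools were limma 3.58.1 in R 4.3.3, and numpy 2.4.6 and matplotlib 3.10.9 in Python 3.11.15.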

Additional observations from a re-analysis of the deposited data

How the results depend on the processing

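Of 20 alternative settings, most left the number of the 33 genes called at 0. In Hmga2-/- against WT limma called 1 gene with libraries rescaled to equal totals (Tgm3, adjusted p = 0.0367) and 1 with only the 2 genotypes in the fit (Rptn, 0.0469), and 0 to 1 with single libraries left out (Tgm3 without WT 2, 0.0444, and Rptn without K5H2 1, 0.0388). In K5H2 against Hmga2-/- it called 1 gene with equal totals (Cnfn, 0.0487). Rescaling to equal totals shifted the median of all genes by -0.16, 0.062 and 0.23 in Hmga2-/- against WT, K5H2 against WT and K5H2 against Hmga2-/-. The cause of these differences was not tested.

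Replicate numbers occur in each genotype, but by their labels the samples share only a number. Over all genes, same-numbered mice deviated from their group means with correlations of -0.22 to 0.21, and not every mouse correlated best with its own number. For the 33 genes, the mouse numbered 1 was the lowest of its genotype for 28 in WT, 27 in Hmga2-/- and 30 in K5H2. The labels do not say whether same-numbered mice were handled together. With the replicate block limma called 1 of the 33 genes in Hmga2-/- against WT (Crct1, adjusted p = 0.0279), 1 in K5H2 against WT (Cnfn, 0.0294) and 5 in K5H2 against Hmga2-/- (Asprv1, Crct1, Cnfn, Lce1a1 and Lce1b). Of the Sprr and Lce3 list it then called 1 and 4 genes against WT, in place of 2 and 8. With the block 12, 15 and 21 of the 33 genes had an unadjusted p under 0.05 in the order of comparisons above, in place of 5, 6 and 9. Over all genes the counts were 3384, 2629 and 2994, in place of 3478, 2652 and 3099. The 0 calls among the 33 genes in the main fit thus depend on leaving the replicate number out.

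Log2 differences that took the other sign belonged to genes that limma did not call, and values are given for the 19 genes described mouse by mouse. Over all 33 genes 12, 2 and 1 turned without both WT 1 and Hmga2-/- 3 in the order of comparisons above, among them 7, 0 and 0 Lce1 genes, while 2, 3 and 3 turned with equal totals and 0, 2 and 0 with equal upper quartiles. Of the 19, for Hmga2-/- against WT they were, without both WT 1 and Hmga2-/- 3, Ivl (-0.16), Flg2 (-0.038), Spink5 (-0.016) and Lce1h (-0.44), and, with equal totals, Spink5 (-0.049) and Krtdap (-0.040). For K5H2 against WT they were Lor (-0.82) and Flg2 (-0.70) without both mice, Spink5 (0.0036) and Lce1m (0.042) with equal totals, and Lce1m (0.017) with equal upper quartiles. For K5H2 against Hmga2-/- they were Spink5 (0.052) and Cst6 (0.029) with equal totals. With each library left out in turn, the range among the 19 crossed 0 for Hmga2-/- against WT in Ivl (-0.12 to 0.57), Tgm1 (-0.26 to 0.22), Spink5 (-0.047 to 0.37), Cst6 (-0.0047 to 0.40), Lce1e (-0.68 to 0.77), Lce1f (-0.72 to 0.40), Lce1g (-1.37 to 0.47) and Lce1h (-0.38 to 1.28). For K5H2 against WT it did in Lor (-0.82 to 0.65), Ivl (-0.73 to 0.052), Flg2 (-0.70 to 0.94), Casp14 (-0.59 to 0.029), Spink5 (-0.18 to 0.13), Cst6 (-0.18 to 0.20) and Lce1m (-1.41 to 0.92). For K5H2 against Hmga2-/- it did in Rptn (-0.36 to 0.82), Flg (-0.96 to 1.03), Flg2 (-1.48 to 0.080), Tgm3 (-0.093 to 0.22), Casp14 (-0.12 to 0.50), Spink5 (-0.43 to 0.013) and Cst6 (-0.39 to 0.014). Of the 12 Lce1 genes, 0, 1 and 2 had a 95% interval that left out 0 in the 3 comparisons.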
